A study of Mus musculus with 6 samples.

Results

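The genes described here encode the core of the spliceosome and the abundant RNA-binding proteins that steer it: SR proteins, heterogeneous nuclear ribonucleoproteins (hnRNPs), Sm and other small nuclear ribonucleoprotein (snRNP) proteins, the SF3A and SF3B subunits, U2AF and the PRPF proteins. Members were the probe sets with 1 gene symbol beginning with Srsf, Hnrnp, Sf3a, Sf3b, Prpf, Snrp or U2af (a number follows in the Srsf, Sf3 and Prpf names), and where a gene had several, the brightest by its mean was taken. This gave 61 genes from 79 probe sets, out of 19937 named genes. A further 8 RefSeq protein-coding genes with such names had no probe set of their own in the annotation and were not analysed here, and 14 probe sets that pair such a symbol with another gene were left out. Srsf7, Hnrnpa1, Hnrnpa3 and Snrpf were not among the members, so the class counts below do not cover whole families.

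The study profiled A316, a line from a primary mouse adenocarcinoma of the lung with a Cebpa knockout, on 6 Affymetrix arrays. Cebpa encodes C/EBP alpha, a transcription factor of epithelial differentiation. PTC-209, a compound labelled as inhibiting Bmi, was applied in 0.5% DMSO for 3 arrays, and 0.5% DMSO alone for the other 3. One free-text label instead speaks of embryos, against every other label of these samples, and was not used. Both groups carry the Cebpa knockout and the same solvent, and all arrays come from this 1 line. The sources used here state no dose, no exposure time and no number of separate cultures, so the p-values reflect sample-to-sample spread alone, and that spread may be technical.

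Splicing removes introns in steps. U1 snRNP recognises the 5′ splice site, U2AF and U2 snRNP with SF3A and SF3B recognise the 3′ splice site and the branch point, and the U4/U6.U5 tri-snRNP then joins to form the active enzyme. SR proteins bind exons and mostly promote their inclusion, whereas hnRNPs often act against them, so the balance of both families shapes alternative splicing. Many of these genes are highly expressed in dividing cells.

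In PTC-209 cells 6 of 10 SR protein genes (60%) fell and 0 rose on their brightest probe sets, led by Srsf1 at 3.16-fold lower. SR genes made up 4 of the 5 largest falls among the members. Read from another of its probe sets, Srsf5 passed as a rise (log2 difference 0.79). Of all 61 genes, 16 fell, which is 26.2%, against 13.7% of all named genes. Another 5 rose, which is 8.2%, against 12.9% of all named genes. The remaining 40 did not pass. Dim genes make up much of that background: 60 of the 61 members lay at or above the median brightness of tested probe sets, and of the 10733 named genes that did so 23.5% fell and 22.1% rose. Set against these, the share of members that fell (26.7% of 60) was near the background and the share that rose (8.33%) was below it. With dim probe sets left out before the fit, 20 of 60 members fell (33.3%, against 26.5% of genes) and 7 rose (11.7%, against 25.5%). Rises and falls are those with a limma p under 0.05 after Benjamini-Hochberg adjustment over the 28192 probe sets tested. The median log2 difference, PTC-209 minus DMSO, was -0.083 over the members and 0.026 over all named genes. It lay close to 0 and moved with single arrays, to -0.028 without PTC-209 replicate 1 and -0.0382 without DMSO replicate 2, and its SD over the 3 PTC-209 arrays was 0.0625. In 26 members every PTC-209 array was below every DMSO array and in 14 every one was above, and 40.5% of all named genes, or 61.5% of those at or above the median brightness, showed such a separation in either direction. The differences of single members ran from -1.66 to 1.30, with an SD of 0.491 across the 61 genes.

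**Figure D1:**
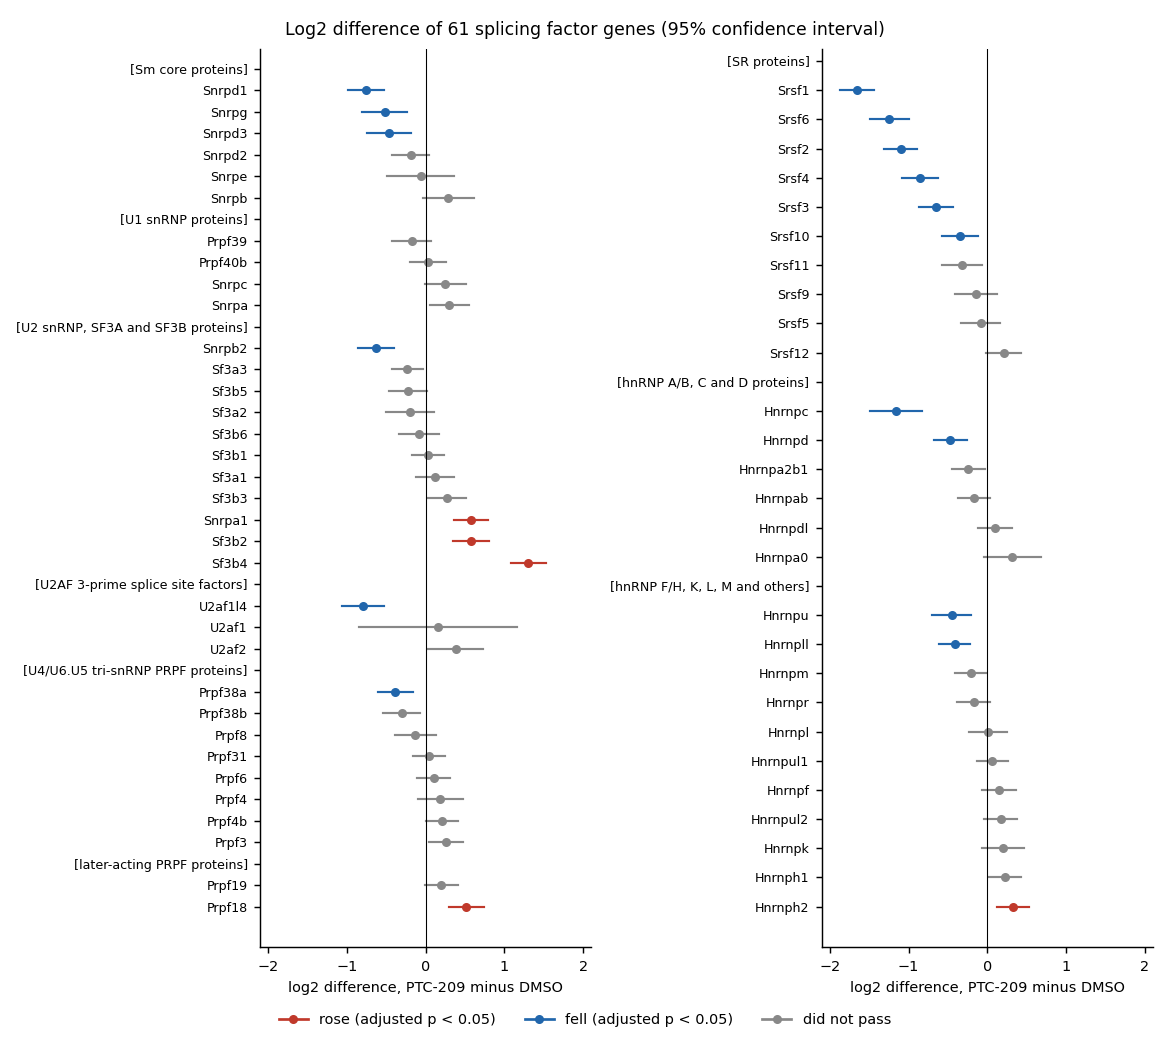
Log2 difference (PTC-209 minus DMSO) of the 61 genes by role, with points for the estimate and bars for its 95% confidence interval. The 5 members furthest to the left are Srsf1, Srsf6, Hnrnpc, Srsf2 and Srsf4, from -1.66 to -0.85, and Sf3b4 lies furthest to the right at 1.30.

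As facts of the whole set of arrays, the median log2 value of an array lay between 4.07 and 4.14, and arrays of a group correlated at 0.992 to 0.996 across probe sets. Bmi1 mRNA averaged 7.01 ± 0.08 in PTC-209 cells and 7.55 ± 0.14 in DMSO cells (SD, n = 3 each; limma adjusted p = 0.00424). Cebpa averaged 3.79 ± 0.12 in PTC-209 cells and 3.65 ± 0.16 in DMSO cells, below the median brightness of 4.33, and the labels do not say whether the knockout removes the region its probe set reads. All 6 epithelial markers lay above that median brightness, and 0 of 6 lung epithelial markers did, the highest group mean among these being 4.32. Of the other marker lists, 4 of 6 fibroblast genes lay above it with group means up to 5.02, 1 of 5 leukocyte genes with means up to 4.53, and 1 of 4 endothelial genes, Cdh5. Cdh5 averaged 8.15 ± 0.21 in PTC-209 cells and 9.48 ± 0.05 in DMSO cells, a fall (limma adjusted p = 3.6e-05).

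SR proteins bind RNA through recognition motifs and carry a tail rich in arginine and serine that recruits the splicing machinery. Srsf1, the founding member and a known oncoprotein, had log2 values of 7.04, 7.14 and 7.13 in PTC-209 cells, against 8.87, 8.71 and 8.71 in DMSO cells. All PTC-209 arrays lay far below all DMSO arrays, a 3.16-fold lower level (log2 difference -1.66, SE 0.0951, adjusted p = 2.34e-06), with 95% confidence limits of 2.72 and 3.66 on the fold. Srsf6 read 6.71, 6.86 and 6.68 in PTC-209 cells and 7.82, 8.08 and 8.09 in DMSO cells. The groups were again apart, with a 2.37-fold lower level (adjusted p = 3.22e-05). Srsf2, known to stay mostly in the nucleus, read 8.96, 8.84 and 8.99 in PTC-209 cells and 10.07, 10.01 and 9.99 in DMSO cells. It was 2.14-fold lower (adjusted p = 2.43e-05). Srsf4 read 7.99, 7.72 and 7.96 in PTC-209 cells and 8.76, 8.70 and 8.78 in DMSO cells, a 1.81-fold lower level (adjusted p = 0.000247). These 4 genes have a single probe set each, and their calls held under all 17 alternative settings.

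Srsf3, also a factor of mRNA export, read 10.27, 10.20 and 10.24 in PTC-209 cells and 10.75, 10.95 and 10.97 in DMSO cells on its brightest probe set. It was 1.57-fold lower without overlap (adjusted p = 0.000925). Srsf10, a splicing repressor when dephosphorylated, read 9.09, 9.14 and 8.99 in PTC-209 cells and 9.29, 9.48 and 9.50 in DMSO cells. The groups did not overlap, but the gap was small (log2 difference -0.35, adjusted p = 0.0327), and the call was lost without any 1 array other than DMSO replicate 1 (adjusted p of 0.0714, 0.062 and 0.11 without PTC-209 replicates 1, 2 and 3, and 0.105 and 0.112 without DMSO replicates 2 and 3). Srsf11, Srsf9, Srsf5 and Srsf12 did not pass, with log2 differences of -0.32, -0.14, -0.08 and 0.21. Srsf11 reached an adjusted p of 0.039 without PTC-209 replicate 3. Srsf12 lay below the median brightness in both groups.

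**Figure D2:**
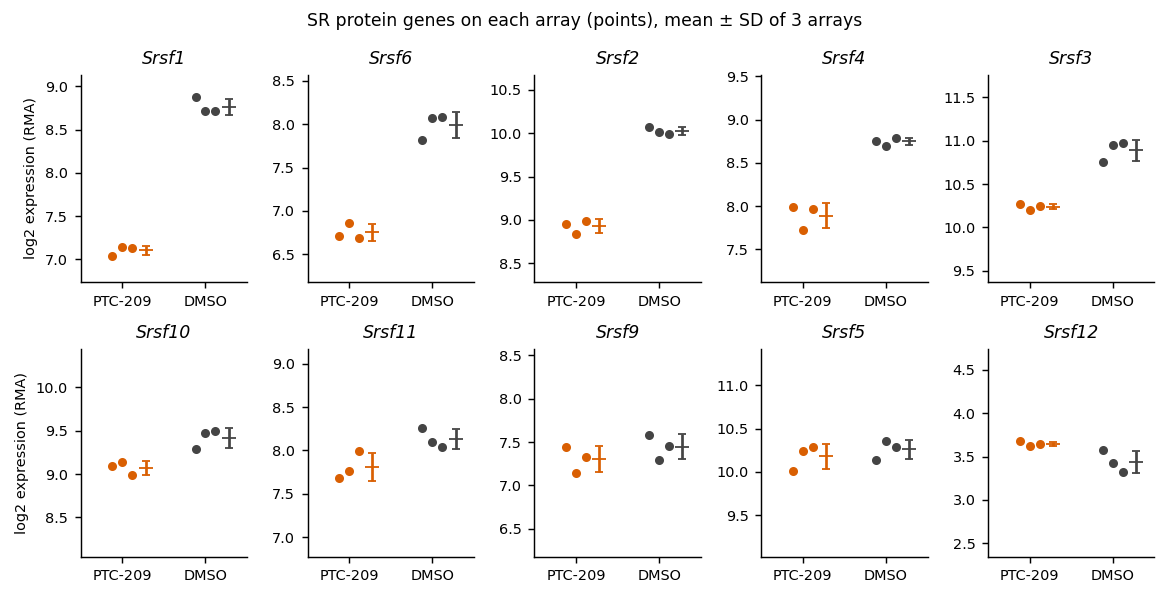
Log2 expression (RMA) of the 10 SR protein genes on each of the 3 PTC-209 and 3 DMSO arrays, with the mean and SD beside the points; each panel spans the same range of log2 units. Srsf1, Srsf6, Srsf2, Srsf4, Srsf3, Srsf10 and Srsf11 show all PTC-209 points below all DMSO points.

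Markers of proliferation moved with the groups too. Of 5 such genes 4 were measured and 4 fell (Mki67, Top2a, Cdk1 and Pcna), and their summed log2 value was 31.9 to 33.4 on PTC-209 arrays and 40.2 to 40.6 on DMSO arrays. Their part in the falls of SR protein and other splicing genes was not tested. Epithelial markers summed to 53.3 to 54 on PTC-209 arrays and 55.7 to 56 on DMSO arrays, with 3 falls and 2 rises. In bulk RNA, fewer cells of a type and less RNA per cell cannot be told apart.

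The start regions of the 6 SR genes that fell are shown because they fell together, with Srsf5 as an SR gene that did not pass on its brightest probe set and Hnrnpc as the hnRNP gene with the largest fall. Each is a 300-base RefSeq window on GRCm38.p6, written 5′ to 3′ along the gene. Capitals mark matches, on either strand, to CCAAT (the CCAAT box), GGGCGG (the GC box), CACGTG (an E-box), TGACGTCA (the cAMP response element), TTTNNCGC (an E2F-type site) or TGATGNAA (a C/EBP-ATF-type site). Matches may overlap. For Srsf4, which has several start sites in the table, the most upstream window is given.
Srsf1 (chr11:88047123-88047422, plus strand): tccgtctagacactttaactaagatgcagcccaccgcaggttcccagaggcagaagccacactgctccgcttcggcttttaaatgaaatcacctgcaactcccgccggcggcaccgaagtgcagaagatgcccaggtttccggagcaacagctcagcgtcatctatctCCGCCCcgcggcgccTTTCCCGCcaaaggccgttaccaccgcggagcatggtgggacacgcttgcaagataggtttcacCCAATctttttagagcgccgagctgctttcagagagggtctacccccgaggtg
Srsf6 (chr2:162931258-162931557, plus strand): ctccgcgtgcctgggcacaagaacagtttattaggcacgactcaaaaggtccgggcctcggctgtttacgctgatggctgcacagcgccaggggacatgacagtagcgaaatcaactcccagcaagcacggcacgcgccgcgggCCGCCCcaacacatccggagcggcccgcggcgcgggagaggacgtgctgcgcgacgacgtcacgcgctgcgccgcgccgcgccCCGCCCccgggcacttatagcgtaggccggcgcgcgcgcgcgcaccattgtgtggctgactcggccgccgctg
Srsf2 (chr11:116853045-116853344, minus strand): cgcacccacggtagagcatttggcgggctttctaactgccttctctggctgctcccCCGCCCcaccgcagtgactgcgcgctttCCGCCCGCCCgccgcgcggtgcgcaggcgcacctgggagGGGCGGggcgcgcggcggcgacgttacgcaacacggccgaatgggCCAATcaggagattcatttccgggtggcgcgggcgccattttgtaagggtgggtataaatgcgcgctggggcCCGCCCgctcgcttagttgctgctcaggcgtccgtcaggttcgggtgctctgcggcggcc
Srsf4 (chr4:131873387-131873686, plus strand): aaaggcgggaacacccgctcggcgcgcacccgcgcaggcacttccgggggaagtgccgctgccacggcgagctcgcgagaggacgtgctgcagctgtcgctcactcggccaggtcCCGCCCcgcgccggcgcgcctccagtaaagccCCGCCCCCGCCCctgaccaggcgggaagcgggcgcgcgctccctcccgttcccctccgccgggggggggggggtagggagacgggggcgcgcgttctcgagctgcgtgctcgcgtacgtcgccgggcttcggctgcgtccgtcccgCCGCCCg
Srsf3 (chr17:29032410-29032709, plus strand): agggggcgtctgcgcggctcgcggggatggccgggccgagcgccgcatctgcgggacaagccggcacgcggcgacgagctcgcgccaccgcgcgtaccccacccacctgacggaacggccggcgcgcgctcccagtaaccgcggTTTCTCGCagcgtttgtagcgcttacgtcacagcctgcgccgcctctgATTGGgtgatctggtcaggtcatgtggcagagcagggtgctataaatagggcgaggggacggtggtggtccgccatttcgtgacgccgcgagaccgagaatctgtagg
Srsf10 (chr4:135855821-135856120, plus strand): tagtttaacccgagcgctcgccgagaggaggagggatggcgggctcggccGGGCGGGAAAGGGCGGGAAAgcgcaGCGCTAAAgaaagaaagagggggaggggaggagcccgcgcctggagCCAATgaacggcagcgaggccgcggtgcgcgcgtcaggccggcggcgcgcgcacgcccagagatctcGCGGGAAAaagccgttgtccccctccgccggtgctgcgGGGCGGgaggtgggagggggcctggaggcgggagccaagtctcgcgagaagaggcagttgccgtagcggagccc
Srsf5 (chr12:80945249-80945548, plus strand): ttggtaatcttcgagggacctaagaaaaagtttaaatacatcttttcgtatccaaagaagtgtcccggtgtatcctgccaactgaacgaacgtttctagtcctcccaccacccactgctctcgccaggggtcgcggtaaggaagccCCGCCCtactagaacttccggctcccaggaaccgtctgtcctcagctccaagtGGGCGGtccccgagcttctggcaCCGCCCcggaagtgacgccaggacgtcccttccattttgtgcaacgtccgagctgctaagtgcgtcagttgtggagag
Hnrnpc (chr14:52103972-52104271, minus strand): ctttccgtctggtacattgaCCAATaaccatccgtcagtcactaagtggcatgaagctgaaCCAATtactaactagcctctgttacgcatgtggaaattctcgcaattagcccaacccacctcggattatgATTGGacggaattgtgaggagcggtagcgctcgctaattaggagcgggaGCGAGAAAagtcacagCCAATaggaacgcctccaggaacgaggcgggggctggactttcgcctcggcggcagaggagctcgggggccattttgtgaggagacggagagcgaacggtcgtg

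Srsf1, Srsf2, Srsf3 and Srsf10 held 1 CCAAT match each, Hnrnpc held 4, and Srsf6, Srsf4 and Srsf5 held 0. GC boxes numbered 5 in Srsf2, 4 in Srsf4, 3 in Srsf10 and in Srsf5, 2 in Srsf6 and 1 in Srsf1. Over all 10 SR genes, CCAAT stood in 4, GGGCGG in 9 and TTTNNCGC in 3. The E2F-type letters occurred 4 times in Srsf10 and once in Srsf1, Srsf3 and Hnrnpc. Windows were found for 53 of the 61 members, 14 of them among the 16 that fell. Of those 14, CCAAT stood in 8, GGGCGG in 10, TTTNNCGC in 5, CACGTG in 1, TGACGTCA in 1 and TGATGNAA in 0. Of all 53 members with a window, these motifs stood in 26, 36, 10, 8, 2 and 1, in the same order. Among all 27025 genes with a window, the shares were 41.1%, 38.2%, 5.93%, 8.09%, 2.03% and 4.51%. The windows of the fallen members were richer in G and C (median 68.8%) than all windows of members (60.3%) and all windows in the table (52.7%), and the part of base composition in these counts was not tested.

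HnRNPs coat nascent transcripts. Of their 17 members 4 fell (23.5%, against 23.5% of named genes at or above the median brightness) and 1 rose (5.88%, against 22.1%). Hnrnpc, whose protein binds uridine tracts and measures transcript length, fell the most. It read 7.83, 8.18 and 8.03 in PTC-209 cells and 9.22, 9.40 and 8.89 in DMSO cells. The groups were well apart, a 2.24-fold lower level (log2 difference -1.16, SE 0.147, adjusted p = 0.000317), with 95% confidence limits of 1.78 and 2.81 on the fold. Hnrnpd, the AU-rich element binder AUF1, read 9.57, 9.76 and 9.67 in PTC-209 cells and 10.13, 10.15 and 10.11 in DMSO cells, and was 1.38-fold lower (adjusted p = 0.00486). Hnrnpu, a nuclear scaffold protein, read 10.40, 10.49 and 10.44 in PTC-209 cells and 10.70, 10.98 and 11.01 in DMSO cells. It was 1.37-fold lower without overlap (adjusted p = 0.0138), a call lost without DMSO replicate 2 (adjusted p = 0.0553) or 3 (0.0572). Hnrnpll, known in T cells as a regulator of CD45 splicing, was 1.33-fold lower, at 7.13 ± 0.02 in PTC-209 cells and 7.55 ± 0.03 in DMSO cells (SD, n = 3 each; adjusted p = 0.00639).

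Hnrnph2, which binds G-rich tracts, was the hnRNP that rose. It read 8.64, 8.57 and 8.49 in PTC-209 cells and 8.24, 8.19 and 8.29 in DMSO cells, 1.25-fold higher without overlap (adjusted p = 0.0299). The call was lost without any 1 array other than PTC-209 replicate 3 (adjusted p from 0.0514 to 0.099). A dimmer probe set of Hnrnph2 also passed, with a log2 difference of 0.78 (adjusted p = 0.00347). Its relatives Hnrnph1 and Hnrnpf had log2 differences of 0.22 and 0.15 and did not pass. The other 10 hnRNPs, among them Hnrnpa2b1, Hnrnpab, Hnrnpk, Hnrnpl and Hnrnpm, did not pass either, with log2 differences between -0.24 and 0.31. The 95% interval for Hnrnpl, the paralog of Hnrnpll, ran from -0.23 to 0.25 around a log2 difference of 0.01. Whether Hnrnpll and Hnrnpl differ in their response was not tested.

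The Sm proteins form the ring on which U1, U2, U4 and U5 snRNAs are held. Of 6 measured, 3 fell (50%) and 0 rose, with a median log2 difference of -0.33. Of named genes at or above the median brightness, 23.5% fell and 22.1% rose. Snrpd1 read 10.21, 10.29 and 10.41 in PTC-209 cells and 10.95, 11.14 and 11.09 in DMSO cells. It was 1.69-fold lower without overlap (log2 difference -0.76, SE 0.102, adjusted p = 0.000453). Snrpg read 10.90, 11.08 and 11.06 in PTC-209 cells and 11.28, 11.72 and 11.61 in DMSO cells, 1.44-fold lower (adjusted p = 0.0142). Snrpd3 read 9.10, 9.01 and 8.85 in PTC-209 cells and 9.34, 9.35 and 9.68 in DMSO cells, 1.38-fold lower (adjusted p = 0.0199). Both sets of arrays were apart, but these calls were less stable than that of Snrpd1. That of Snrpg was lost without PTC-209 replicate 1 (adjusted p = 0.0553), DMSO replicate 2 (0.0561) or DMSO replicate 3 (0.0527), and its other probe set did not pass (log2 difference -0.16). That of Snrpd3 was lost without PTC-209 replicate 2 (0.0547), PTC-209 replicate 3 (0.0763) or DMSO replicate 3 (0.0696). The count of Sm genes that fell was 1 without DMSO replicate 3. Snrpd2, Snrpe and Snrpb had log2 differences of -0.19, -0.07 and 0.29 and did not pass, although Snrpb passed as a rise without DMSO replicate 1 (adjusted p = 0.0151). The 5 probe sets of Snrpd2 had log2 differences from -0.46 to -0.19. Of these a dim one, at 2.35 in PTC-209 cells and 2.81 in DMSO cells, passed as a fall (adjusted p = 0.0209).

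Of the 11 genes of U2 snRNP, SF3A and SF3B, 3 rose (27.3%) and 1 fell (9.09%). Of named genes at or above the median brightness, 22.1% rose and 23.5% fell. The proteins of Snrpa1 and Snrpb2 form a pair on U2 snRNA, yet their transcripts differed in opposite directions. Snrpa1 read 9.52, 9.45 and 9.60 in PTC-209 cells and 8.86, 9.02 and 8.97 in DMSO cells. Snrpb2 read 8.75, 8.73 and 8.95 in PTC-209 cells and 9.45, 9.51 and 9.36 in DMSO cells. Neither gene's groups overlapped: Snrpa1 was 1.49-fold higher (adjusted p = 0.0017) and Snrpb2 1.55-fold lower (adjusted p = 0.00147), and both calls held under all 17 alternatives. Sf3b2, a branch-site subunit of SF3B, read 8.43, 8.25 and 8.25 in PTC-209 cells and 7.83, 7.70 and 7.65 in DMSO cells, 1.49-fold higher (adjusted p = 0.00224). Sf3b1, the largest SF3B subunit and the target of known splicing inhibitors, had a log2 difference of 0.03 (95% interval -0.18 to 0.24), and the remaining members that did not pass lay between -0.24 and 0.27.

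Sf3b4, an SF3B subunit that touches RNA near the branch point, gave the largest rise among the members. Its brightest probe set read 7.96, 8.03 and 7.98 in PTC-209 cells and 6.80, 6.69 and 6.57 in DMSO cells, 2.47-fold higher (log2 difference 1.30, SE 0.0977, adjusted p = 1.16e-05). Its other probe set read 5.47, 5.37 and 5.53 in PTC-209 cells and 5.70, 5.10 and 5.53 in DMSO cells, with overlapping groups (log2 difference 0.01, adjusted p = 0.966). The rise therefore rests on 1 of the gene's probe sets.

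Identifiers on this array run along the chromosomes, so each probe set was set against its 10 nearest single-gene probe sets by identifier. It was called in place when at least 6 of those belonged to genes that RefSeq puts within 5 Mb of the gene it is named for. Each of the 61 members had a probe set in place, but for 8 of them the brightest one lay elsewhere, which is 13.1%, against 2.62% of all placed genes. These 8 were Hnrnpf, Hnrnpk, Sf3b4, Snrpc, Srsf3, Srsf5, Srsf10 and U2af1. Such probe sets can read near-identical copies of a gene, and which transcript they read cannot be settled from these files. Read from the probe sets in place, 6 members rose and 16 fell, so the count of falls was the same while Sf3b4 no longer passed and Srsf5 and U2af1 did.

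For Srsf5, known to respond to growth signals, the probe set in place read 9.76, 9.82 and 9.80 in PTC-209 cells and 9.12, 9.13 and 8.77 in DMSO cells. It was 1.72-fold higher without overlap (log2 difference 0.79, adjusted p = 0.000863), while the brightest probe set read 10.01, 10.24 and 10.29 in PTC-209 cells and 10.14, 10.35 and 10.29 in DMSO cells. Srsf3 had a larger fall on the probe set in place, which read 5.95, 5.97 and 5.42 in PTC-209 cells and 6.46, 7.11 and 7.34 in DMSO cells (2.28-fold lower, adjusted p = 0.00383), while its remaining probe set did not pass (log2 difference 0.16). Srsf10 also had a larger fall, at 1.57-fold lower (adjusted p = 0.0174). On these probe sets the SR class had 6 falls and 1 rise, with a median log2 difference of -0.75 in place of -0.50. Srsf5 and U2af1 were singled out after their values were seen.

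**Figure D3:**
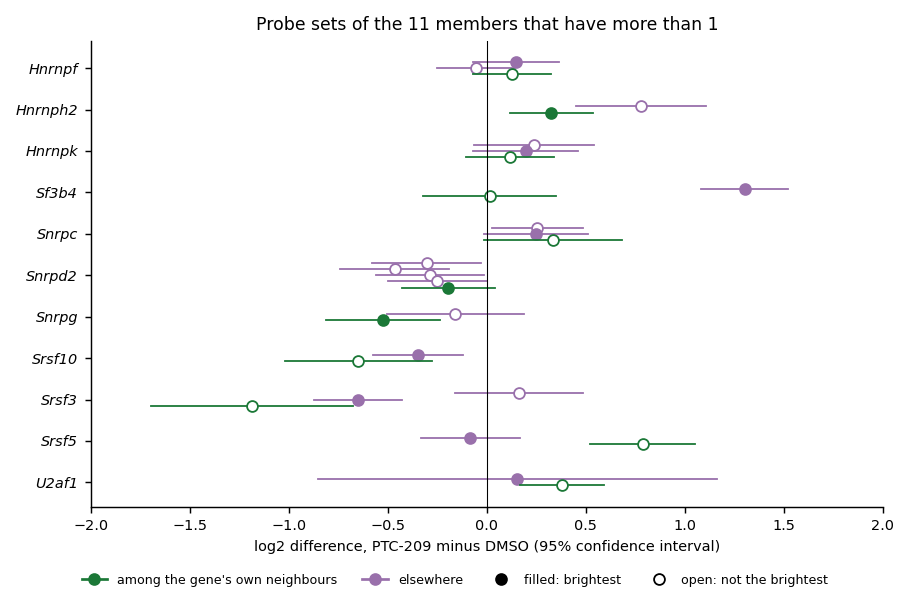
Log2 difference (PTC-209 minus DMSO) with its 95% confidence interval for every probe set of the 11 members that have more than 1. Colour shows whether a probe set lies among its gene's neighbours and filling whether it is the brightest. In Sf3b4, Srsf5, U2af1 and Snrpg 1 of 2 probe sets passed. The other probe set of each had a log2 difference of 0.01, -0.08, 0.15 and -0.16, in the same order.

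U2AF marks the 3′ splice site, its large subunit U2af2 on the polypyrimidine tract and its small subunit U2af1 on the AG. U2af1l4, a relative of the small subunit, read 6.40, 6.66 and 6.29 in PTC-209 cells and 7.37, 7.18 and 7.19 in DMSO cells. It was 1.74-fold lower without overlap (adjusted p = 0.000848), and its call held under all 17 alternatives. The brightest probe set of U2af1 read 7.85, 8.90 and 9.12 in PTC-209 cells and 7.39, 9.08 and 8.95 in DMSO cells. Replicate 1 was low in both groups there, so its difference of 0.15 had an SE of 0.447. The probe set in place read 8.39, 8.47 and 8.54 in PTC-209 cells and 8.15, 8.09 and 8.02 in DMSO cells, 1.30-fold higher (adjusted p = 0.0154). U2af2 had a log2 difference of 0.38 and did not pass (adjusted p = 0.121), but it passed as a rise without DMSO replicate 1 (0.0415).

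U1 snRNP recognises the 5′ splice site. Of the 4 members classed with it, 0 rose or fell by limma, while 1 had an unadjusted p under 0.05. Other U1-linked genes lie outside the naming rule and are counted among the other snRNP genes below. Of these, Snrnp70 was 1.41-fold lower (limma adjusted p = 0.0103) and Luc7l 1.47-fold higher (0.0025), while Luc7l2 and Luc7l3 did not pass. Snrpa, which binds a loop of U1 snRNA, read 8.69, 8.71 and 8.72 in PTC-209 cells and 8.61, 8.25 and 8.37 in DMSO cells. Its groups did not overlap, but the difference of 0.30 did not pass (adjusted p = 0.0833, and 0.0173 without DMSO replicate 1). Snrpc gave log2 differences of 0.25 to 0.33 over 3 probe sets, and 0 of these passed. Prpf39 and Prpf40b, relatives of U1-associated proteins of yeast, had differences of -0.18 and 0.03.

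The PRPF proteins of the tri-snRNP bring in and remodel its RNAs. Of 8 PRPF genes grouped with it here, 1 fell (12.5%) and 0 rose. Of named genes at or above the median brightness, 23.5% fell and 22.1% rose. The grouping is by role and does not mean that each protein, Prpf38a and Prpf38b among them, is a part of the tri-snRNP. Prpf38a, needed to activate the spliceosome, read 8.27, 8.28 and 8.45 in PTC-209 cells and 8.63, 8.76 and 8.77 in DMSO cells. It was 1.31-fold lower without overlap (adjusted p = 0.0183), a call lost without PTC-209 replicate 1 (0.0642) or 2 (0.0731) or DMSO replicate 2 (0.0639) or 3 (0.0654), which leaves 0 falls in this class. Prpf8, the large protein at the heart of the catalytic centre, had a difference of -0.13 (95% interval -0.40 to 0.13), and the class members that did not pass lay between -0.31 and 0.26. Prpf18, a factor of the second catalytic step, read 6.44, 6.40 and 6.55 in PTC-209 cells and 6.02, 5.83 and 6.001 in DMSO cells. It was 1.43-fold higher (adjusted p = 0.00399). Prpf19, a ubiquitin ligase of the spliceosome, had a difference of 0.20 and did not pass.

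Genes of splicing outside the naming rule were described by 7 lists, of which 140 of 154 genes were measured, 34 rose (24.3%) and 27 fell (19.3%). All but 2 of these genes lay at or above the median brightness, where 22.1% of named genes rose and 23.5% fell, so the counts over all lists together were near the background. SR proteins are phosphorylated by the SRPK and CLK kinases. Of 19 kinases and SR-related genes, 6 rose and 3 fell, with Rnps1 2.07-fold higher, Srpk1 1.81-fold lower and Tra2a 1.71-fold higher. Srpk1, a kinase that sends SR proteins to the nucleus, averaged 8.52 ± 0.07 in PTC-209 cells and 9.38 ± 0.06 in DMSO cells. Srpk2 and Srpk3 did not pass, with log2 differences of 0.331 and 0.135. Clk1, Clk3 and Clk4 were 1.41-, 1.30- and 1.32-fold higher. Srpk2, Srpk3 and the Clk genes were singled out after their values were seen. The falls of this list numbered 1 without PTC-209 replicate 3, DMSO replicate 2 or DMSO replicate 3.

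LSM proteins form the ring on U6 snRNA (Lsm2 to Lsm8) or on decaying mRNA (Lsm1 in place of Lsm8). Of 10 measured, 4 fell and 1 rose. Lsm2 fell to 6.57 ± 0.02 in PTC-209 cells, against 7.98 ± 0.03 in DMSO cells, a 2.66-fold lower level. Lsm3 was 2.62-fold lower and Lsm5 2.56-fold lower. The probe set of Lsm5 that lies in place gave a smaller log2 difference of -0.81. The gene that rose was Lsm1, 1.68-fold higher, which was singled out after its value was seen. Among 21 other snRNP genes 5 fell (23.8%) and 3 rose (14.3%), against 23.5% and 22.1% of named genes at or above the median brightness. In this list Txnl4b was 2.01-fold higher, the U4/U6 cyclophilin Ppih 1.88-fold lower and the U5 GTPase Eftud2 1.53-fold lower.

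Assembly of snRNPs needs the SMN complex, which loads Sm rings onto snRNAs. Of 18 assembly genes 6 fell and 2 rose. Gemin6 fell to 7.13 ± 0.23 in PTC-209 cells, against 8.73 ± 0.06 in DMSO cells, a 3.03-fold lower level, and Gemin4 was 2.12-fold lower. Gemin8 was 2.45-fold lower on its brightest probe set, while the one in place gave a log2 difference of -0.41 (adjusted p = 0.0176). The falls of this list numbered 3 without PTC-209 replicate 2, and its rises 1 without any 1 PTC-209 array. PRP19-associated proteins and helicases showed 6 rises (23.1%) and 5 falls (19.2%) among 26, near the 22.1% and 23.5% of named genes at or above the median brightness. They were led by Ctnnbl1 (1.79-fold lower), Rbm22 (1.75-fold higher) and Cwc22 (1.70-fold lower). Their falls numbered 3 without PTC-209 replicate 2, PTC-209 replicate 3 or DMSO replicate 1, and their rises 4 without PTC-209 replicate 1 and 7 without DMSO replicate 1. Ddx5, 1 of the 6 rises, did not pass on its probe set in place (log2 difference 0.28, limma adjusted p = 0.0687). Read from the probe sets in place, this list had 5 rises and 5 falls.

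The exon junction complex marks joined exons, and nonsense-mediated decay removes transcripts whose stop codon precedes such a mark. Of 15 such genes listed 10 were measured, and of these 7 rose (70%) and 0 fell. Of named genes at or above the median brightness, 22.1% rose and 23.5% fell. The median log2 difference of the 10 genes was 0.36. Upf1, the central helicase of the decay pathway, averaged 5.98 ± 0.08 in PTC-209 cells and 5.01 ± 0.24 in DMSO cells, a 1.97-fold higher level (adjusted p = 0.000411). Smg6, its endonuclease, was 1.68-fold higher and Smg1, its kinase, 1.60-fold higher. The count of rises was 4 without PTC-209 replicate 1 or DMSO replicate 2, and 3 with a minimum fold of 1.2. SR genes are known to make isoforms that this pathway removes, and a probe set sums isoforms, so the array does not separate them.

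Among 36 regulators of alternative splicing 9 rose (25%) and 4 fell (11.1%), against 22.1% and 23.5% of named genes at or above the median brightness. Mbnl3 fell to 5.71 ± 0.13 in PTC-209 cells, against 7.38 ± 0.10 in DMSO cells, a 3.18-fold lower level. Ptbp2, the neural relative of the polypyrimidine tract binding protein, averaged 8.11 ± 0.03 in PTC-209 cells and 6.72 ± 0.23 in DMSO cells, 2.62-fold higher. Rbfox2, which binds UGCAUG, was 1.87-fold higher.

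**Figure D4:**
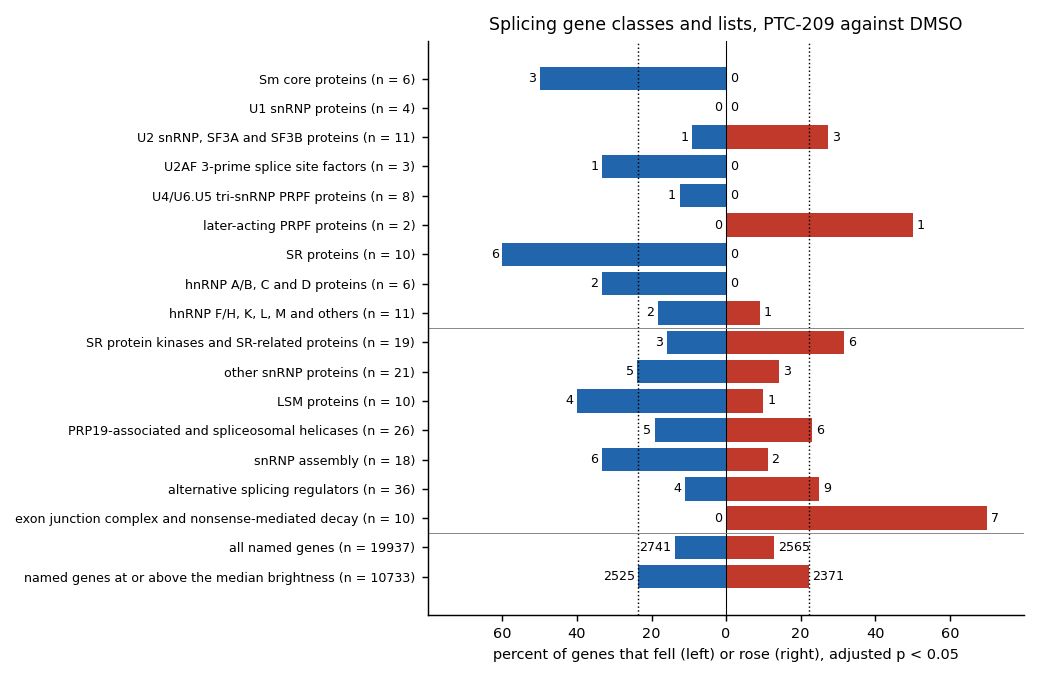
Percent of genes that fell (bars to the left) and rose (bars to the right) at an adjusted p under 0.05 in the 9 classes of members (top), the 7 other splicing lists (middle) and all named genes and those at or above the median brightness (bottom), with counts at the bar ends and dotted lines at the shares of named genes at or above the median brightness, 23.5% and 22.1%. The SR class has 6 falls and 0 rises on the brightest probe sets drawn here, and 6 falls and 1 rise on those in place. The list of the exon junction complex and nonsense-mediated decay has 7 rises and 0 falls.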

How the data were processed

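Values were taken as the authors deposited them: log2 expression of 34760 probe sets on 6 arrays, made with RMA per the submitters' processing notes. RMA corrects background, quantile-normalizes and summarises probes, which removes any shift common to the transcriptome. Their range showed the log2 scale. A run of 6568 control identifiers without genes was left out, leaving 28192 probe sets, of which 21640 have 1 symbol, 1321 several and 5231 none listed in the platform annotation. All member symbols matched RefSeq by Entrez identifier. Differences were tested with limma 3.58.1 in R 4.3.3 (treatment as the only term, eBayes) over all 28192 probe sets, with Benjamini-Hochberg adjustment. Residual degrees of freedom were 4 and the median residual SD 0.138. The number of arrays, 3 per group, limits the precision.

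The comparison with genes at or above the median brightness was added after seeing the data. The members, classes and lists were chosen with earlier results of these data known. Array values are given for the 10 largest rises and falls past the threshold (only 5 rose). They are also given for the member with the largest called change in each class (the brightest where none passed). For up to 3 genes of each other list the fold is given, for some with the group means and SD. Every further member or list gene named was added after its values were seen. Alternatives were a trended and robust prior, a minimum fold of 1.2, array weights, a block for the replicate number, the averaged probe sets of each gene, 3 rescalings (quantile, cyclic loess, median), removal of dim probe sets, omission of each array, retention of the control block and, chosen after seeing the data, the probe set in place. Figures were drawn with matplotlib 3.10.9.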

Additional observations from a re-analysis of the deposited data

How the results depend on the processing

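Of the 21 calls among the members, 11 held under all 17 alternatives. The count of rises was 8 with a trended and robust prior and 3 with a minimum fold of 1.2, against 5, and the count of falls was 9 with that minimum fold, against 16. A minimum fold asks for more than a difference from 0, so fewer genes can pass it. The median log2 difference of the members was -0.159 after cyclic loess, against -0.083, and the cause was not tested. With 1 array left out, rises ran from 4 to 7, falls from 11 to 16, and the median from -0.0925 to -0.028. Over all 61 members and the alternatives, 1036 values were computed: 945 kept their direction and side of the threshold, 35 lost a call and 33, in 14 members, gained one. The other 23 changed sign, in 8 members of which 0 had passed. Among these, Srsf5 was 0.352 as the mean of its probe sets, 0.786 on the probe set in place and 0.00161 without PTC-209 replicate 1, and U2af1 was -0.0775 with array weights, -0.0919 without PTC-209 replicate 3 and -0.388 without DMSO replicate 1. With 1 array left out, Srsf5 ran from -0.143 to 0.00161 and U2af1 from -0.388 to 0.539. For Srsf5 the first 2 come from another choice of probe set, and otherwise the cause was not tested. With the probe set in place the counts were 6 rises and 16 falls. With the replicate number as a block 7 members rose and 16 fell. Deviations of same-numbered arrays correlated at 0.231, 0.0703 and 0.0733. For replicate 1 this was above the values with other numbers, which ran from -0.163 to -0.11. Replicates 2 and 3 were not told apart: PTC-209 replicate 3 correlated at 0.105 with DMSO replicate 2. The numbers were therefore not taken to pair the samples, and a shared effect of replicate 1 was not tested. A level near the background limits what can be said of Srsf12.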
